A study of Mus musculus with 18 samples.

Results

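Wildtype myoblasts were compared between day 2 of differentiation (D2) and the proliferating state (Prol), across all genes. The comparison used 6 of the 18 RNA-seq libraries of the study, namely the 3 D2 and the 3 Prol libraries labelled wildtype, chosen by these labels alone. Each library listed 19153 genes, of which 17672 passed a filter on low counts and were tested. All cells of the study were immortalized mouse myoblasts with the genotype p53 knockout, so every group, controls included, carried this deletion. Wildtype (WT) refers to LAP2alpha, a product of the *Tmpo* gene: these cells had been transfected with a Cas9 plasmid that carried no guide RNA and were sorted as a pool, whereas LAP2alpha knockout (KO) cells had received the guide. WT Prol cells were kept below confluence in 20% fetal calf serum. WT D2 cells had been grown to confluence and then held in 5% fetal calf serum for 48 hours. Cell density, serum and time thus changed together between these groups and cannot be told apart in this comparison alone. The remaining groups, each also of 3 libraries, were WT cells at confluence (D0, the start of differentiation) and KO cells in the same 3 states, and they are used here only for values set beside those of the WT cells. The labels number the replicates but do not say whether they came from separate cultures, so the p-values measure the spread between these libraries, which may be technical.

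Myoblasts are the dividing precursors of skeletal muscle. When serum is withdrawn from a confluent culture, transcription factors of the MyoD family together with MEF2 proteins switch on the genes of the contractile apparatus, the cells leave the cell cycle, and they fuse into multinucleated myotubes. The RB and p130 proteins with E2F and the MuvB core complex hold back the genes for DNA replication and mitosis in cells that have stopped dividing.

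Total expected counts ran from 26437823 to 38283031 in the 6 libraries, so that 3 counts corresponded to 0.0937 to 0.138 CPM (counts scaled to the size of the library). The summed level of 5 genes of differentiated muscle was 2.36 to 13.1 CPM in Prol and 2315 to 4691 CPM at D2, and all 5 were called higher. Of the myoblast markers in the files, *Myod1*, *Des*, *Cdh15* and *Itga7* were called higher and *Myf5* and *Vcam1* were not called, with sums of 116 to 149.4 CPM in Prol and 551.7 to 860.7 CPM at D2. *Pax7*, a defining marker of muscle stem cells, was not in the files. The summed endothelial, leukocyte, adipocyte and epithelial markers stayed at or below 2.00, 5.88, 0.888 and 0.478 CPM in every library. These levels are under the 10 CPM that a call requires, so none of these genes could be called. The files held 3, 2, 2 and 1 of these markers, the last being *Krt8*. Glia and nerve markers summed to 7.34 to 11.1 CPM in Prol and 12.3 to 17.9 CPM at D2, with none called. Smooth muscle markers summed to 181 to 459 CPM in Prol and 779 to 1423 CPM at D2, with *Acta2* called higher and *Cnn1* lower, and the call of *Cnn1* was lost without Prol replicate 1 or 3 and without D2 replicate 2 or 3. Cardiac markers summed to 0.236 to 0.593 CPM and 5.11 to 11.8 CPM, with *Myh6* called higher. *Myh6* lay at or under 3 counts in every Prol library and at 11.41, 3.29 and 3.625 CPM at D2. It reached 10 CPM in D2 replicate 1 alone and could not be called without that library. Cartilage markers summed to 60.9 to 322.5 CPM and 31.2 to 121.5 CPM, with *Col2a1* called lower at -4.34, or -3.47 without Prol replicate 1 and -5.21 without D2 replicate 1. The other cartilage markers were not called, with *Comp* at 3.01 but at most 1.06 CPM, *Sox9* at 1.03 and *Acan* at -0.044. Replicate 1 stood apart in every group of the study: on the second principal component, with 15.1% of the variance, it had the highest value in each of the 6 groups. In WT it carried more fibroblast marker RNA, mainly *Col1a1*, with a marker sum of 2199 CPM against 460 and 422.5 CPM in the other two Prol libraries, and of 12460 CPM against 1918 and 2485 CPM in the other two D2 libraries. *Pdgfra* and *Dcn* of this list were called higher at D2, and *Col1a1* was not. *Lum* lay at or under 3 counts in every Prol library and at 2.485, 3.87 and 2.71 CPM at D2, too low for a call. The call of *Pdgfra* was lost without Prol replicate 2 or 3 and without D2 replicate 1 or 3. The part of these differences in the results below was not tested. A gene was called when the adjusted p of limma, corrected over all genes tested with the Benjamini-Hochberg method, was below 0.05, the fitted change exceeded 1.5-fold, and at least 1 of the 6 libraries reached 10 CPM. Without WT D2 replicate 1 the number of genes called went from 3515 to 3630, of which 2973 were also called in the same direction with all libraries.

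In WT D2/Prol, 3515 of 17672 genes (19.9%) were called. Of these, 1618 (9.16%) were higher and 1897 (10.7%) lower at D2. Among the 10478 genes that reached 10 CPM in a library, these shares were 15.4% and 18.1%. Lower calls were thus more numerous than higher ones, but when library totals replaced the TMM scaling the split turned to 2028 higher and 1488 lower, since that scaling raised the median log2 fold change of all genes by 0.16. Of the called genes, 514 were higher and 285 lower by more than 4-fold, and 180 were higher and 10 lower by more than 16-fold. Genes called higher made up 3.90% of all CPM in Prol and 14.1% at D2, and those called lower 25.9% and 12.6%. The libraries of the groups did not overlap for 3466 of the called genes, against 43.5% of all genes tested. Protein-coding genes held most calls, with 1585 of 13792 higher and 1818 lower, while 20 of 1673 long non-coding genes were higher and 32 lower, and 7 of 1215 pseudogenes were higher and 35 lower. Only 10076 protein-coding genes, 164 long non-coding genes and 181 pseudogenes reached the 10 CPM that a call requires, so the shares of all tested genes in these classes are not comparable.

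Most of the largest rises belonged to genes of the contractile apparatus, calcium handling and fusion. The largest of all was that of *Hfe2*, for the BMP co-receptor hemojuvelin, which lay at or under 3 counts in every Prol library and at 57.4, 37.7 and 41 CPM at D2, at least 389-fold higher against that floor. *Mybph*, a myosin-binding protein, was at 0.629, 0.138 and 0.0506 CPM in the 3 Prol libraries and at 335, 255 and 202 CPM at D2, a log2 fold change of 10.62 ± 0.94 (SE; adjusted p = 8.65e-07). *Actc1*, cardiac-type actin that is also made in young myotubes, went from 1.32, 0.692 and 0.287 CPM to 1402, 610 and 506 CPM (10.20 ± 0.71, adjusted p = 1.71e-07). *Myl1*, a myosin light chain, went from 1.65, 0.178 and 0.253 CPM to 431, 459 and 336 CPM (9.91 ± 0.92, adjusted p = 1.32e-06). No Prol library came near any D2 library for these 3 genes, and Prol replicate 1 was the highest of its group each time. *Lmod3*, which nucleates actin at the pointed end of thin filaments, and *Capn3*, a muscle calpain, lay at or under 3 counts in every Prol library. Against that floor they were at least 537-fold and at least 302-fold higher at D2. *Casq2*, *Myh3* and *Tnnc2*, for a calcium buffer, embryonic myosin and troponin C, completed the leading rises together with *Mymk*. Leaving out single Prol libraries moved these folds by more than 1.5 times without changing a call. Without Prol replicate 1, the log2 fold changes were 11.59 for *Mybph*, 10.90 for *Myl1*, 11.12 for *Casq2*, 10.74 for *Myh3*, 10.47 for *Tnnc2* and 11.28 for *Mymk*. Without Prol replicate 2 the value was 9.29 for *Myl1*, and without Prol replicate 3 the values were 9.78 for *Mybph*, 9.37 for *Casq2*, 9.11 for *Myh3* and 9.68 for *Mymk*.

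The largest falls were smaller and of mixed kind. *Mybl2*, the B-Myb factor that joins the MuvB complex to switch on mitotic genes, went from 129, 101 and 136 CPM to 4.12, 9.92 and 9.33 CPM (log2 fold change -4.06 ± 0.32, adjusted p = 3.99e-07). *Edn1*, the vasoconstrictor endothelin, went from 40.4, 14.7 and 39.2 CPM to 3.26, 1.54 and 1.39 CPM (-3.90 ± 0.47, adjusted p = 1.28e-05). *Irf5*, an interferon regulatory factor, was at 43.8 to 51.3 CPM in Prol and at 9.33, 1.30 and 1.5 CPM at D2 (-4.14 ± 0.61, adjusted p = 8.83e-05). *Col2a1*, the cartilage collagen, was at 280.7, 46.2 and 46.4 CPM in Prol and at 14.1, 1.93 and 2.69 CPM at D2 (-4.34 ± 1.01, adjusted p = 0.00386), with replicate 1 the highest in both groups. The groups did not overlap for any of these 4 genes. *Prl2c3*, of a family of near-identical prolactin-like genes whose reads are uncertain between copies, *1700012B09Rik* and the unnamed genes *Gm43078*, *Gm44206* and *Gm43558* were between -4.44 and -3.98. Without D2 replicate 1 the values were -5.05 for *Irf5*, -3.85 for *1700012B09Rik* and -5.21 for *Col2a1*, which was at -3.47 without Prol replicate 1.

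**Figure D1:**
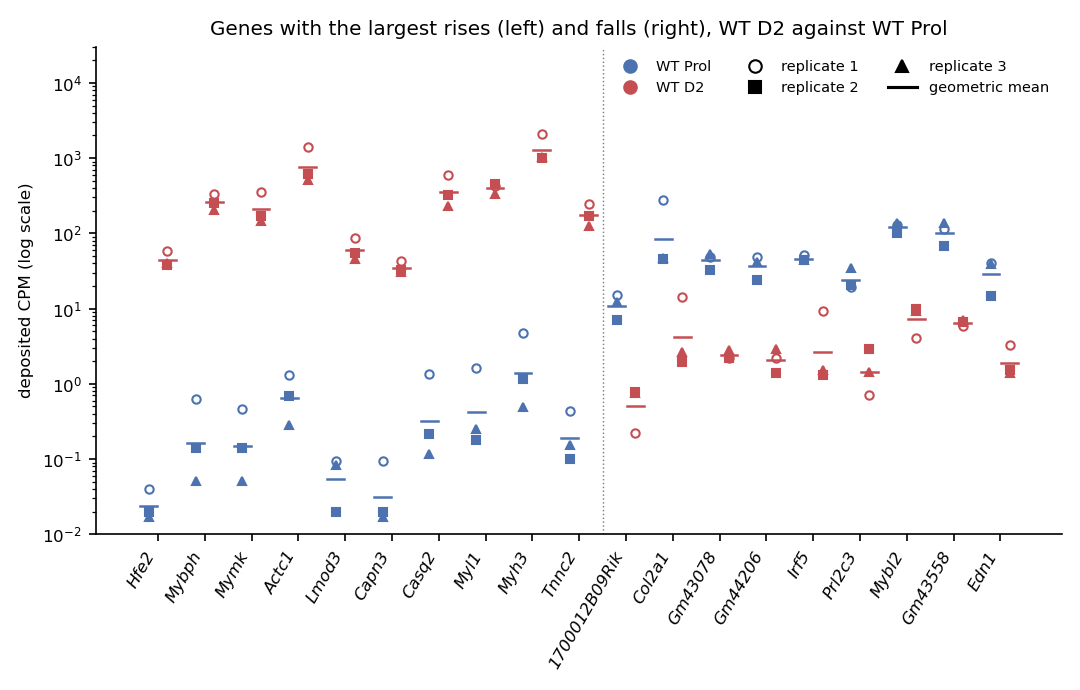
Deposited CPM (log axis) of the 10 genes with the largest fitted rise (left of the dotted line) and 9 of the 10 with the largest fitted fall (right) in each of the 3 WT Prol (blue) and 3 WT D2 (red) libraries, with short lines at the geometric means. The Prol and D2 points do not overlap for any of the 19 genes, and replicate 1 (open circles) is often the highest of its group.

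By change of the mean in CPM, other genes led. The largest rises in CPM were those of *Col3a1*, a fibrillar collagen, *H19*, an imprinted non-coding RNA, *Sparc*, *Igf2* and *Postn*. *H19* went from 304, 130 and 199 CPM to 5238, 2911 and 3004 CPM (log2 fold change 4.17 ± 0.60, adjusted p = 7.13e-05). *Col3a1* went from 443, 529 and 415 CPM to 6630, 3275 and 3210 CPM (3.16 ± 0.46, adjusted p = 8.09e-05). The largest falls in CPM were those of *Ptma*, prothymosin, *Npm1*, a nucleolar chaperone, *Pabpc1*, the poly(A) binding protein, *Gapdh* and *Rps2*. *Npm1* went from 2255, 2732 and 3004 CPM to 942, 973 and 825 CPM (-1.54 ± 0.28, adjusted p = 0.000589), and *Ptma* from 2532, 2454 and 2726 CPM to 885, 781 and 751 CPM (-1.68 ± 0.24, adjusted p = 5.93e-05). Every D2 library was below every Prol library for the 5 falling genes. The calls of *Gapdh* and *Pabpc1* (log2 fold changes -1.09 and -1.54) were lost without Prol replicate 1 or 3 and without D2 replicate 2 or 3. *Postn* was at 4.09 without D2 replicate 1 and at 5.36 without Prol replicate 1, against 4.68 with all libraries.

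To show what lies before genes that moved in either direction, the promoters of 3 leading muscle genes and 3 cell-cycle genes are given, each from 250 bases before to 50 bases after the start of transcription, from RefSeq on GRCm38.p6. Capitals mark matches on either strand to CAGCTG, the E-box preferred by MyoD and myogenin, GGAATG of TEAD factors, TGACTCA or TGAGTCA of AP-1, the CArG box of SRF, the MEF2 motif, TTTCGCGC or TTTGGCGC of E2F, TTTGAA of the cell-cycle homology region (CHR) bound by MuvB, and CCAAT of NF-Y. *Cdk1*, the mitotic kinase, was at 200.4, 227 and 232 CPM in Prol and at 24.4, 67.9 and 57.1 CPM at D2. *Ccnb2*, a cyclin that activates it, was at 43.6, 40.4 and 38.4 CPM and at 8.79, 18.1 and 17.6 CPM. *Mcm5*, a subunit of the replicative helicase, was at 275, 188 and 228 CPM and at 25.3, 34.5 and 37.4 CPM. All 3 were called lower, at log2 fold changes of -2.27 ± 0.35, -1.53 ± 0.25 and -2.83 ± 0.29. These promoters were chosen with the values of their genes known, and *Ccnb2* is named for its promoter after its values were seen.
Mybph, chr1:134193198-134193497, plus strand: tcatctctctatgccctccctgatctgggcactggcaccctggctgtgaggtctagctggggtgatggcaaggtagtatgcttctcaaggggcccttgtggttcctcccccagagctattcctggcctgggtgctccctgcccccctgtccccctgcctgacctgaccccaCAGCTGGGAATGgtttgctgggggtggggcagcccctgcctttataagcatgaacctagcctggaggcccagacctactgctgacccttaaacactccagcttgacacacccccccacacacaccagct
Myl1, chr1:66945007-66945306, minus strand: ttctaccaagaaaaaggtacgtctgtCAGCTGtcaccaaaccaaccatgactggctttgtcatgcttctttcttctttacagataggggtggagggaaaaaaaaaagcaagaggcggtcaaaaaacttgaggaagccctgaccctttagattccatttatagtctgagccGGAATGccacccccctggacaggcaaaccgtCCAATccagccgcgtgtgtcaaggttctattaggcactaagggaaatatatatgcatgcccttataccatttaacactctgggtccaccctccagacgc
Actc1, chr2:114052826-114053125, minus strand: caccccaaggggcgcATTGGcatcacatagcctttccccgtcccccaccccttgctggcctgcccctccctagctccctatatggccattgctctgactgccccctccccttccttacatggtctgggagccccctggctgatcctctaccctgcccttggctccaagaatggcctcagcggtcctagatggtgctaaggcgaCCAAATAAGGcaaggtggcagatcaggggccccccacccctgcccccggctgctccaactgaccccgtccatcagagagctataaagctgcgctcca
Cdk1, chr10:69352863-69353162, minus strand: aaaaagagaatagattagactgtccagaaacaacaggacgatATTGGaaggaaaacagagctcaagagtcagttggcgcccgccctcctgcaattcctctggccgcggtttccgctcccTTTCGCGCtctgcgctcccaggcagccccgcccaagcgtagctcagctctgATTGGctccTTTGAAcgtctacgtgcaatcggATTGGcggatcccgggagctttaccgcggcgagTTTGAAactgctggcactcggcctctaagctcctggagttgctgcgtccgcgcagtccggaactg
Ccnb2, chr9:70421505-70421804, minus strand: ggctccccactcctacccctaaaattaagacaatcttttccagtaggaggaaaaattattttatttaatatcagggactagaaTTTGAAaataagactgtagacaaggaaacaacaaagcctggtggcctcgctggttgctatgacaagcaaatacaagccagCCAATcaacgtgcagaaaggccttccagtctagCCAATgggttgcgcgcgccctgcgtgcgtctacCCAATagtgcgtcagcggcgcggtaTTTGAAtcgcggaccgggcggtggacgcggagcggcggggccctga
Mcm5, chr8:75109259-75109558, plus strand: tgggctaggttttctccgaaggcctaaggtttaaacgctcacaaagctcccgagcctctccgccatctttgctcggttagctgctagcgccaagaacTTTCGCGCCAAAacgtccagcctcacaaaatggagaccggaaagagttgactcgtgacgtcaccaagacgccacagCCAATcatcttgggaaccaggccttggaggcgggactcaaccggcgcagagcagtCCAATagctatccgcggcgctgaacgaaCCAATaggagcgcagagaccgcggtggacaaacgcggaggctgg
Counted from the start of transcription, *Mybph* held an E-box at -79 to -74 with a TEAD motif directly beside it at -73 to -68. *Myl1* held an E-box at -224 to -219, a TEAD motif at -80 to -75 and a CCAAT box at -49 to -45, and *Actc1* a CArG box at -47 to -38. *Cdk1* held an E2F motif at -131 to -124, CHR motifs at -71 to -66 and -15 to -10, and 3 CCAAT boxes. *Ccnb2* held 2 CHR motifs and 3 CCAAT boxes and no E2F motif, and *Mcm5* held 2 overlapping E2F motifs, at -153 to -146 and -149 to -142, 3 CCAAT boxes and no CHR motif. A match is a description of the letters, not a site of binding.

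Over all called genes with a single RefSeq promoter, 909 called higher and 1232 called lower, the shares with each motif were as follows. CAGCTG was in 21.9% of promoters of genes called higher and 11.7% of those called lower. It was in 13.0% of those not called with at least 10 CPM and 15.4% of all 9228 tested genes with a single promoter. GGAATG was in 16.7%, 9.82% and 10.9%, against 12.4% of all tested. TTTGAA was in 8.80% of promoters of genes called higher and 18.3% of those called lower (10.2% not called, 12.2% of all tested). The E2F motif was in 0.770% and 4.06% (1.44% not called, 1.48% of all tested). CCAAT was in 40.6% and 44.5% (38.7% not called, 39.5% of all tested). AP-1 motifs were in 4.73% and 2.60% (2.69% not called, 3.67% of all tested), and CArG boxes in 2.09% and 1.06% (1.32% not called, 1.41% of all tested). The MEF2 motif was rare, with matches in 0.440% and 0.162% (0.186% not called, 0.26% of all tested). These shares are descriptions of the letters and carry no test.

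**Figure D2:**
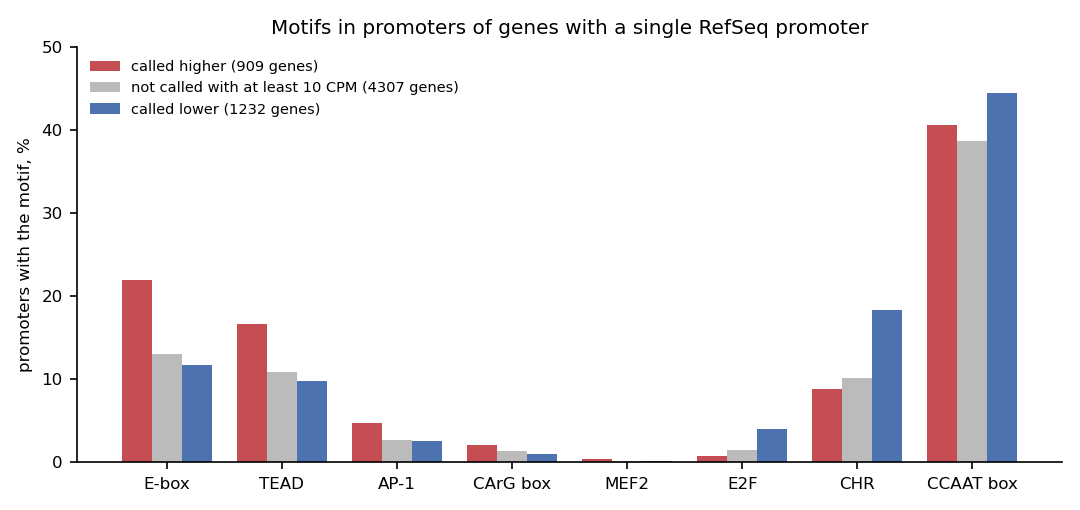
Percent of promoters that hold each motif (vertical axis) for genes with a single RefSeq promoter that were called higher (red, 909 genes), not called with at least 10 CPM (grey, 4307) or called lower (blue, 1232). E-box and TEAD bars are highest for genes called higher, and E2F and CHR bars are highest for genes called lower.

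Functions were described with 72 gene lists, and each count is to be read against the 9.16% of all genes called higher and the 10.7% called lower. Most sarcomere genes rose. Of the thick filament and M-band genes, 17 of 23 tested were called higher and 0 lower, with a median log2 fold change of 7.31, or 5.71 with the 5 members at or under the floor in one group set to their bound. Of the thin filament genes, 16 of 22 were higher and 1 lower (median 6.49, or 6.40 with 2 members at their bound), and of the titin and Z-disc genes, 16 of 29 were higher and 0 lower (median 3.81, or 2.86 with 5 members at their bound). The embryonic *Myh3* was at 4.72, 1.17 and 0.489 CPM in Prol and at 2070, 1001 and 1049 CPM at D2. *Mylpf*, the fast regulatory light chain, went from 3.57, 1.01 and 1.17 CPM to 748, 1060 and 677 CPM (log2 fold change 8.98 ± 0.64). *Acta1*, skeletal muscle actin, went from 5.32, 1.19 and 1.02 CPM to 1701, 896 and 810 CPM (9.17 ± 0.81). *Ttn*, the molecular spring of the sarcomere, went from 0.870, 0.336 and 0.321 CPM to 426, 93.0 and 114 CPM (8.51 ± 1.25). Each of these 4 genes had its 3 D2 libraries far above all Prol libraries, with D2 replicate 1 the highest for all but *Mylpf*. The adult fast myosins *Myh2* and *Myh4* and the slow light chain *Myl2* stayed below 10 CPM in every library, the minimum for a call. Each lay at or under 3 counts in every Prol library and was higher at D2. At D2 *Myh2* was at 1.25, 1.34 and 0.932 CPM, *Myh4* at 2.65, 0.5605 and 1.1 CPM, and *Myl2* at 0.342, 0.287 and 0.3515 CPM. *Tpm3*, a tropomyosin found in most cells, was the only thin filament gene called lower (-1.18 ± 0.22, adjusted p = 0.000628), while *Tpm2*, a muscle tropomyosin named after its value was seen, was called higher at 2.18. In KO cells 14 thick filament, 14 thin filament and 15 Z-disc genes were called higher. Without Prol replicate 1 the values were 9.92 for *Acta1* and 10.74 for *Myh3*, without Prol replicate 3 it was 9.11 for *Myh3*, and without D2 replicate 1 it was 7.82 for *Ttn*.

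Genes that couple the nerve signal to contraction rose with the sarcomere. For excitation-contraction coupling, 18 of 32 genes were called higher and 1 lower (median log2 fold change 3.15), and for the neuromuscular junction 12 of 17 were higher and 0 lower (median 3.02). *Ryr1*, the calcium release channel, was at 1.11, 0.376 and 0.220 CPM in Prol and at 139, 88.7 and 108 CPM at D2 (7.93 ± 0.58, adjusted p = 2.45e-07). *Atp2a1*, the calcium pump that refills the store, went from 0.308, 0.217 and 0.0844 CPM to 95.1, 55.2 and 59.8 CPM (8.57 ± 0.70). Subunits of the acetylcholine receptor rose together, *Chrna1* from 16.1, 6.95 and 9.74 CPM to 348, 199 and 186 CPM (4.51 ± 0.33) and the embryonic subunit *Chrng* from 0.120, 0.376 and 0.186 CPM to 96.5, 65.2 and 65.5 CPM (8.52 ± 0.91). *Chrnd* was at 6.82, and *Musk* and *Dok7*, which cluster the receptor, at 3.02 and 6.96. Prol and D2 libraries were apart for each of these genes, and *Ryr1* was at 8.58 without Prol replicate 1. Of the dystrophin complex and membrane repair genes, 10 of 26 were called higher and 0 lower (median 0.97). Of those, *Sgca* for a sarcoglycan was at 7.39, or 6.48 without Prol replicate 2. *Dmd*, dystrophin itself, was below 2 CPM in all 6 libraries, too low for a call. It was at 0.281, 0.217 and 0.152 CPM in Prol and at 0.967, 1.26 and 0.816 CPM at D2. Of the ion channel genes, 5 of 21 were called higher, or 3 without D2 replicate 1. *Cacna1g* was at 5.51, and the adult sodium channel *Scn4a* stayed below 1 CPM in each library. *Scn4a* lay at or under 3 counts in every Prol library and at 0.908, 0.424 and 0.548 CPM at D2.

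Among the regulators, *Myog*, the myogenin gene, rose most. It was at 1.30, 0.652 and 0.388 CPM in Prol and at 532, 386 and 261 CPM at D2 (9.09 ± 0.69, adjusted p = 3.13e-07). *Myod1* went from 0.736, 2.43 and 4.61 CPM to 99.7, 88.0 and 79.0 CPM (5.45 ± 0.53, adjusted p = 2.05e-06), and was at 4.72 without Prol replicate 1 and 6.05 without Prol replicate 3. *Myf5*, which marks committed myoblasts, was at 20.5, 27.4 and 25.7 CPM in Prol and at 11.6, 19.8 and 21.4 CPM at D2, with overlapping groups and no call. *Myf6* stayed below 2 CPM. *Mef2c* went from 4.08, 2.90 and 3.09 CPM to 118, 65.8 and 69.9 CPM (4.62 ± 0.35), *Mef2a* was also called higher (2.03 ± 0.31), and *Smyd1*, a muscle methyltransferase, was at 7.22. In all, 8 of 25 myogenic factors were called higher and 0 lower. The Id proteins, which bind and silence the partners of MyoD, went the other way. *Id1* went from 204, 182 and 169 CPM to 74.4, 47.9 and 38.8 CPM (-1.83 ± 0.27, adjusted p = 7.77e-05) and *Id2* from 87.3, 132 and 106 CPM to 48.8, 33.6 and 27.9 CPM (-1.58 ± 0.37, adjusted p = 0.00408), each with all D2 libraries below all Prol libraries. In the Notch pathway the ligand *Dll1* was at 8.04, *Hes6* at 2.85 and the receptor *Notch1* at 1.88, all called higher. Of the bHLH and Notch list 9 of 28 were higher and 4 lower. The fusion genes *Mymk* and *Mymx*, whose membrane proteins drive the merging of myoblasts, were called higher, *Mymx* from 0.120, 0.138 and 0.0506 CPM to 37.5, 50.6 and 33.6 CPM (8.72 ± 1.04). Of the whole fusion list, this pair included, 10 of 30 were called higher and 1 lower (median 0.62).

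**Figure D3:**
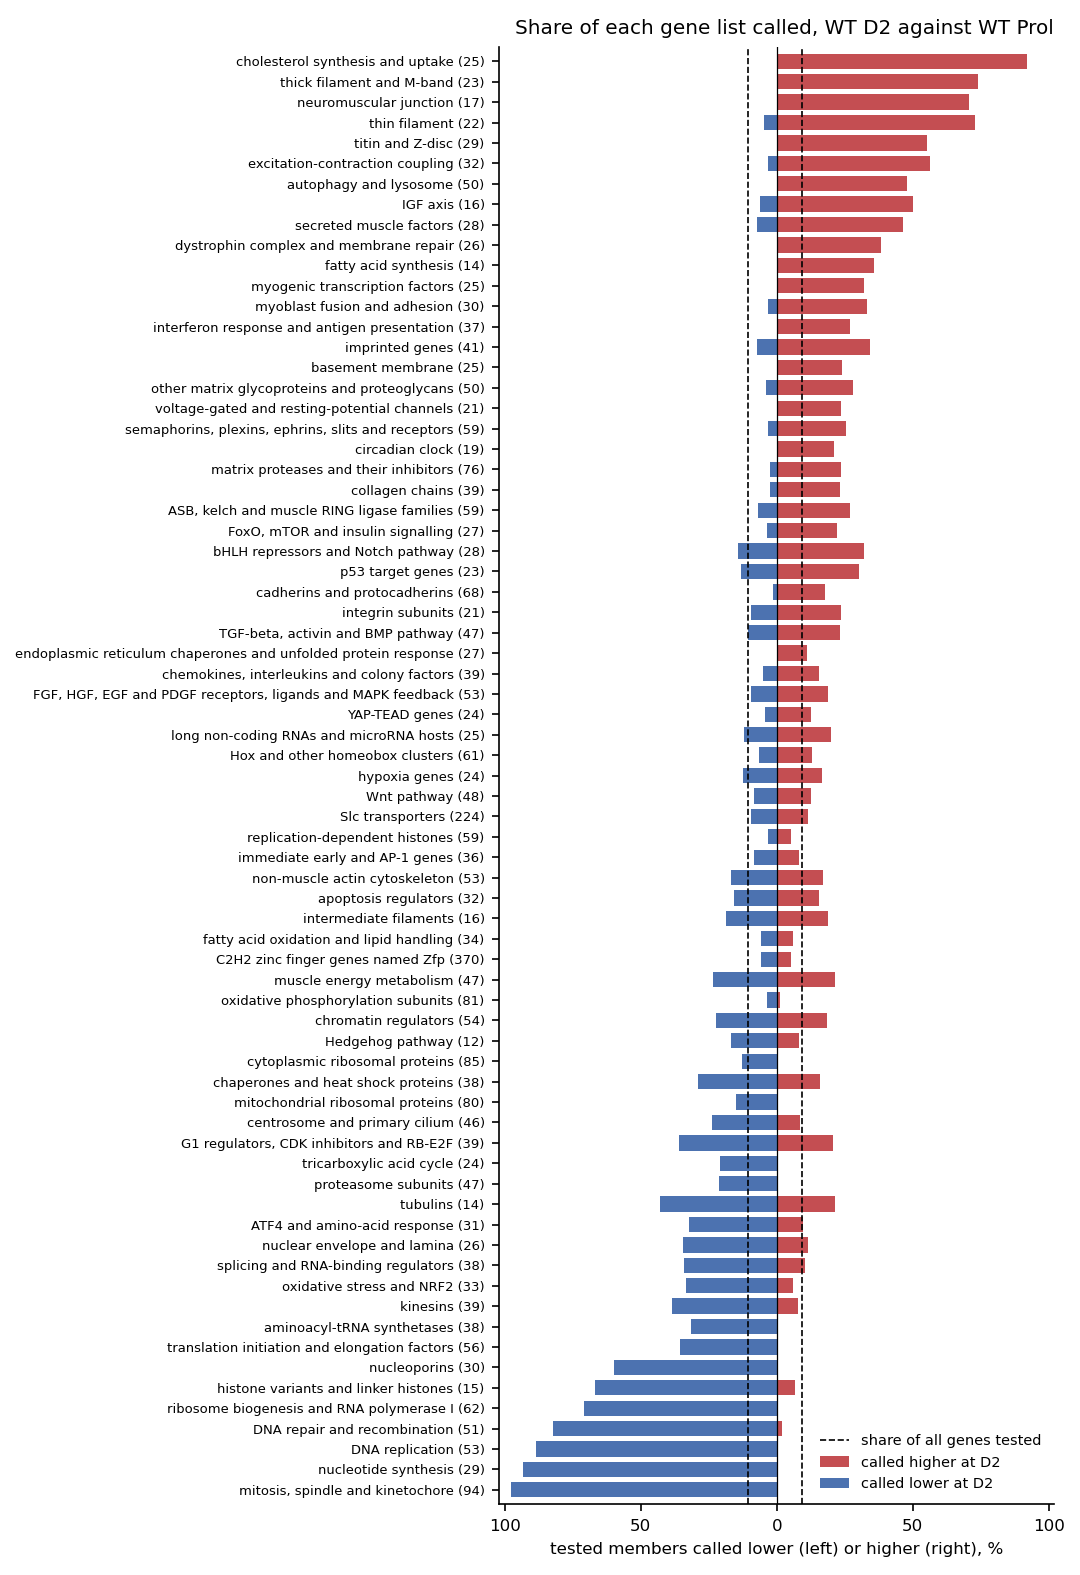
Percent of tested members called lower (blue, to the left) or higher (red, to the right) for the 71 gene lists with at least 12 tested members, with the number tested in brackets. Dashed lines mark the shares of all genes tested, 10.7% lower and 9.16% higher, and the bars run from muscle structure and cholesterol at the top to DNA replication and mitosis at the bottom.

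Genes of cell division fell as a block. For mitosis, spindle and kinetochore, 92 of 94 genes were called lower and 0 higher (median log2 fold change -2.33), and the summed level of the list was 13060, 11640 and 13220 CPM in Prol and 2033, 3427 and 3257 CPM at D2. For DNA replication 47 of 53 were lower and 0 higher (median -1.89), for nucleotide synthesis 27 of 29 and 0 (median -1.66), and for DNA repair and recombination 42 of 51 and 1 (median -1.44). KO cells had 93, 48, 28 and 42 lower calls in these lists. *Mki67*, the proliferation antigen, was at 386, 227 and 271 CPM in Prol and at 33.2, 41.9 and 56.0 CPM at D2 (-2.75 ± 0.45, adjusted p = 0.000223). *Ccnb1* went from 258, 284 and 300.2 CPM to 30.2, 66.8 and 58.5 CPM (-2.51 ± 0.26), and *Aurkb*, a kinase of chromosome segregation, from 96.5, 86.1 and 95.3 CPM to 6.17, 17.5 and 15.5 CPM (-2.96 ± 0.32). The helicase gene *Mcm2* went from 245, 173 and 242 CPM to 51.6, 41.7 and 44.3 CPM (-2.25 ± 0.34), and *Rrm2*, the S-phase subunit of ribonucleotide reductase, from 313, 233 and 308 CPM to 26.8, 38.5 and 37.1 CPM (-3.06 ± 0.24, adjusted p = 3.88e-07). *Brca1*, of recombination repair, went from 67.5, 55.5 and 66.6 CPM to 6.24, 12.5 and 13.3 CPM (-2.64 ± 0.35). The D2 libraries were below the Prol libraries for each of these genes. The 2 uncalled mitosis genes were *Stmn1* and *Cenpt*, and the repair gene called higher was *Xrcc5*.

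The G1 regulators divided. Of 39 genes 8 were called higher and 14 lower. *Cdkn1a*, the CDK inhibitor p21, was at 9.15, 8.09 and 11.8 CPM in Prol and at 662, 327 and 278 CPM at D2 (5.36 ± 0.36, adjusted p = 1.28e-07) in these p53 knockout cells. *Rb1*, the retinoblastoma gene, went from 10.9, 7.37 and 10.4 CPM to 68.5, 30 and 33.1 CPM (2.11 ± 0.35, adjusted p = 0.000233), whereas its relative *Rbl1* went from 61.8, 62.2 and 66.4 CPM to 14.2, 22.8 and 23.8 CPM (-1.69 ± 0.21, adjusted p = 1.85e-05). *Ccnd1*, cyclin D1, went from 366, 215 and 326 CPM to 47.1, 28.6 and 34.9 CPM (-3.03 ± 0.44). The E-type cyclins *Ccne1* and *Ccne2* were called lower, at -2.09 and -2.52, with *Ccne2* at -1.73 without D2 replicate 1. *E2f7* was called lower at -2.60 and *E2f2* higher at 2.70. *Cdkn1c*, p57, stayed below 10 CPM and so could not be called. It was at 0.0937, 0.573 and 0.962 CPM in Prol and at 1.74, 5.37 and 4.37 CPM at D2. Of the p53 target genes, 7 of 23 were called higher and 3 lower, among them *Eda2r* at 5.20 and *Trp53inp1* at 4.74. *Trp53* itself was counted at 125, 120 and 162 CPM in Prol and at 46.9, 54 and 57.7 CPM at D2 (-1.35 ± 0.17, adjusted p = 1.79e-05). The labels do not say which part of the gene the knockout removes.

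Chromatin and the nuclear envelope followed the division genes in part. Of the histone variants and linker histones 10 of 15 were called lower and 1 higher, and of the high-mobility-group genes 6 of 9 were lower and 0 higher. *Hmga1* went from 453, 337 and 599 CPM to 74.6, 39.0 and 47.1 CPM (-3.13 ± 0.41) and *Hells*, a remodeller needed for DNA methylation, from 209, 165 and 217 CPM to 24.6, 29.7 and 34.3 CPM (-2.74 ± 0.26). The linker histone gene *Hist1h1c* went the other way, from 7.97, 7.2 and 6.58 CPM to 29.6, 41.5 and 37.3 CPM (2.31 ± 0.25, adjusted p = 4.77e-06), and so did *Hist1h2bc* (3.18 ± 0.26). Most replication-dependent histone transcripts lack a poly(A) tail, and with polyA-selected RNA only 6 of 59 reached 10 CPM. Of the chromatin regulators 10 of 54 were higher and 12 lower, or 6 and 15 without D2 replicate 1, with the methyltransferases *Suv39h2*, *Dnmt1* and *Ezh2* lower at -2.24, -1.94 and -1.74. *Hdac9* was higher at 4.53, with 10.9, 5.35 and 5.25 CPM at D2, so that only D2 replicate 1 reached the 10 CPM of a call. Of the nucleoporins 18 of 30 were lower and 0 higher (median -1.10), led by *Nup160* and *Nup85*. In the nuclear envelope list *Lmnb1* went from 255, 199 and 248 CPM to 56.2, 42.9 and 47.2 CPM (-2.27 ± 0.34, adjusted p = 0.000106), while *Lmna* was at 971, 697 and 848 CPM in Prol and 1068, 399.7 and 413 CPM at D2 and was not called. *Tmem38a*, a channel of the muscle nuclear envelope and calcium store, was called higher at 3.30 ± 0.21.

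Most genes of ribosome assembly fell. Of 62 genes for ribosome biogenesis and RNA polymerase I, 44 were called lower and 0 higher (median log2 fold change -1.05), or 29 without Prol replicate 3 and 29 without D2 replicate 3. *Fbl*, the fibrillarin gene, was at 240.4, 182 and 242 CPM in Prol and at 104, 59.9 and 53.1 CPM at D2 (-1.67 ± 0.32, adjusted p = 0.000846). *Nop56* went from 582, 636 and 774 CPM to 185, 214 and 178 CPM (-1.78 ± 0.29) and *Dkc1*, dyskerin, from 241, 149 and 262 CPM to 80.2, 46.2 and 40.9 CPM (-1.99 ± 0.32). The D2 libraries were below the Prol libraries for all 3. The counts in the other lists of protein synthesis changed with the scaling and when single libraries were left out. With CPM from plain library totals in place of TMM scaling, 4 cytoplasmic ribosomal protein genes, 4 mitochondrial ribosomal protein genes, 5 proteasome subunit genes and 7 aminoacyl-tRNA synthetases were called lower, and 1 synthetase was called higher. Of the translation factors 20 of 56 were called lower and 0 higher (median -0.71), or 11 without Prol replicate 3, 12 without D2 replicate 2 and 7 without D2 replicate 3. Of the aminoacyl-tRNA synthetases 12 of 38 were lower, or 5, 20, 7 and 5 without Prol replicate 3 and D2 replicates 1, 2 and 3. Of 85 cytoplasmic ribosomal protein genes 11 were lower (12.9%) and 0 higher with a median of -0.47, and leaving out Prol replicate 2 or D2 replicate 3 gave a count of 2, and leaving out Prol replicate 3 a count of 4. Fitted on the 6 libraries alone the count was 6. Of 80 mitochondrial ribosomal protein genes 12 were lower, or 7, 5 and 7 without Prol replicates 2 and 3 and D2 replicate 1, and of 47 proteasome subunit genes 10 were lower, or 3, 5 and 2 without Prol replicate 3 and D2 replicates 2 and 3. *Eif5a* at -1.54 ± 0.25 and *Vars* at -1.73 ± 0.29 were members whose calls held with any one of the 6 libraries left out. Of the chaperones 11 of 38 were lower and 6 higher. *Hspd1*, the mitochondrial chaperonin, went from 987, 665 and 1011 CPM to 398, 160 and 169 CPM (-1.98 ± 0.47) and *Unc45b*, the muscle chaperone that folds myosin, from 0.201, 0.0988 and 0.0506 CPM to 51.4, 32.9 and 30.1 CPM (8.53 ± 0.51, adjusted p = 4.55e-08).

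Genes of energy metabolism moved in both directions. Of 47 genes for muscle energy metabolism, 10 were called higher and 11 lower, with 6 lower without Prol replicate 1 or 3 and without D2 replicate 2 or 3. *Ckm*, muscle creatine kinase, was at 0.110, 0.0593 and 0.101 CPM in Prol and at 14.7, 12.3 and 12.2 CPM at D2 (7.22 ± 0.48, adjusted p = 1.01e-07). The muscle phosphoglycerate mutase *Pgam2* went from 0.120, 0.0593 and 0.0506 CPM to 9.45, 14.4 and 11.8 CPM (7.36 ± 0.93), while the general isoform *Pgam1* went from 926, 851 and 1067 CPM to 349, 345 and 307 CPM (-1.50 ± 0.23). The general enolase *Eno1* was at -1.34 and the muscle enolase *Eno3* at 0.85, both called, the pair chosen after their values were seen. *Ldha*, which makes lactate, went from 1421, 1269 and 1482 CPM to 416, 407 and 328 CPM (-1.86 ± 0.21, adjusted p = 6.73e-06). *Pygm*, which breaks down glycogen, was called higher at 4.42. The kinases that restrain pyruvate dehydrogenase went apart, with *Pdk2* at 2.05 ± 0.38 and *Pdk4* at -1.98 ± 0.27. *Pdk2* was at 14.6, 8.67 and 9.35 CPM at D2, so that only D2 replicate 1 reached the 10 CPM of a call. Few genes of oxidative phosphorylation were called. Of 81 oxidative phosphorylation subunits 1 was called higher and 3 lower (median 0.05), or 2 and 5 without D2 replicate 1. The muscle forms *Cox6a2*, *Cox7a1* and *Cox8b* did not reach 10 CPM and so could not be called. *Cox8b* lay at or under 3 counts in every Prol library and at 5.13, 6.71 and 4.15 CPM at D2. *Cox6a2* went from 0.228, 0.0988 and 0.0844 CPM to 1.83, 1.63 and 1.39 CPM, and *Cox7a1* overlapped between the groups. Of 24 tricarboxylic acid cycle genes 5 were lower and 0 higher, or 2 without Prol replicate 1 or 3 and without D2 replicate 2 or 3, and 3 were lower with plain library totals. Of 34 genes of fatty acid oxidation and lipid handling 2 were called higher and 2 lower (median 0.24). *Fabp5* and *Pparg*, of lipid handling, were called lower at -1.91 and -1.85.

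**Figure D4:**
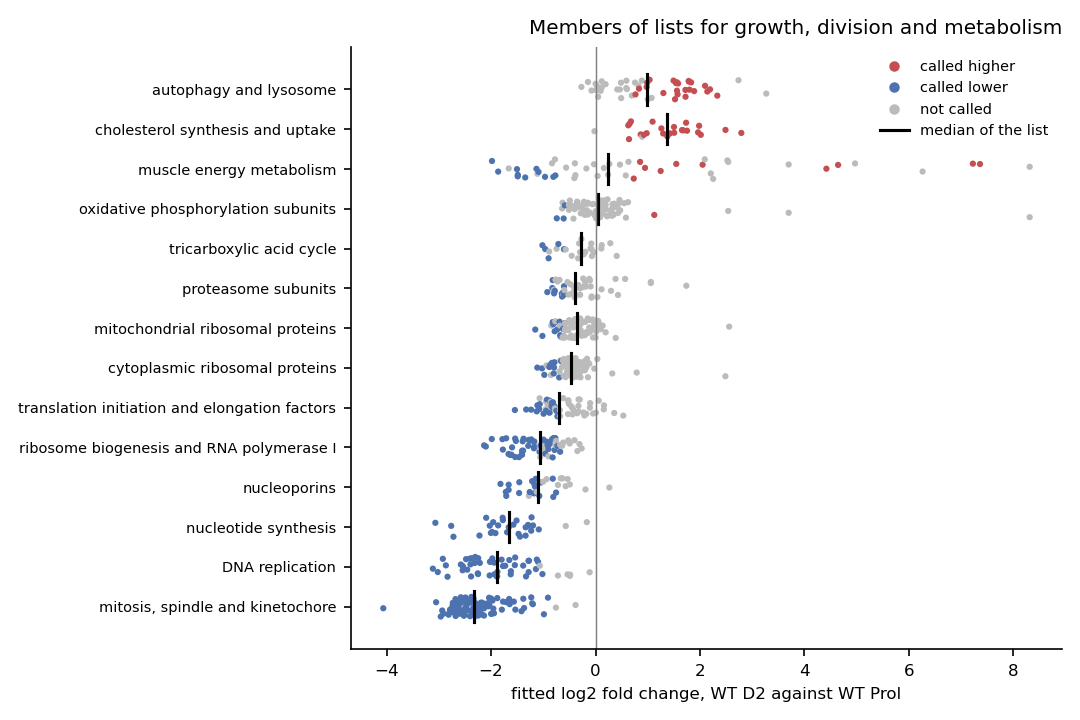
Fitted log2 fold change, WT D2 against WT Prol, of each tested member of 14 lists for growth, division and metabolism, coloured by call, with the median of the list as a black line. The mitosis genes lie to the left of zero as a body, the oxidative phosphorylation genes straddle zero, and the cholesterol and lysosome genes lie to the right.

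Nearly all genes of cholesterol synthesis and uptake rose. Of 25 genes 23 were called higher and 0 lower (median log2 fold change 1.37), and KO cells also had 23 and 0. The summed level of the list was 925.7, 919.3 and 766.6 CPM in Prol and 3224, 1916 and 2058 CPM at D2. *Insig1*, a sterol-regulated retention factor, was at 26.4, 35.3 and 25.7 CPM in Prol and at 173, 152 and 161 CPM at D2 (2.49 ± 0.23, adjusted p = 1.19e-06). *Cyp51*, a demethylase of the late pathway, went from 50.3, 51.7 and 42.8 CPM to 254, 164 and 158 CPM (1.96 ± 0.23). All D2 libraries were above all Prol libraries for both genes. Without D2 replicate 1, in which the list was highest, 18 of the list were called higher. Of the fatty acid synthesis genes 5 of 14 were higher and 0 lower, or 3 and 1 without D2 replicate 1, with the desaturases *Scd1* and *Scd2* at 2.13 and 2.00.

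Many lysosome and autophagy genes also rose, with 24 of 50 called higher and 0 lower (median 0.98), 19 without D2 replicate 1, and 28 in KO cells. The list summed to 4564, 4006 and 4343 CPM in Prol and to 13150, 9279 and 8716 CPM at D2. *Hexa*, a hexosaminidase subunit, went from 29.3, 25.6 and 26.4 CPM to 158, 109 and 98.0 CPM (2.14 ± 0.18, adjusted p = 5.44e-07). The sialidase *Neu1* was at 11.5, 12.7 and 9.0 CPM in Prol and at 52.1, 48.4 and 49.6 CPM at D2 (2.19 ± 0.21), with replicates close to each other. Among the ubiquitin ligase families of muscle 16 of 59 were higher and 4 lower. *Trim55* and *Trim63*, which bind the sarcomere, were at 9.46 and 6.55, and *Klhl40*, which stabilizes thin filament proteins, at 8.94. *Trim55* was at 10.20 without Prol replicate 1 and *Klhl40* at 8.15 without Prol replicate 2. *Asb4* fell from 281, 330.2 and 277 CPM to 75.7, 61.1 and 54.9 CPM (-2.22 ± 0.24, adjusted p = 5.78e-06).

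Many genes of the IGF axis and the imprinted set rose. Of 16 IGF genes 8 were called higher and 1 lower (median log2 fold change 1.71). *Igf2*, the growth factor itself, was at 140.3, 38.4 and 66.0 CPM in Prol and at 2968, 1349 and 1360 CPM at D2 (4.63 ± 0.65, adjusted p = 5.98e-05). *Igf1* went from 3.15, 1.48 and 1.06 CPM to 31.2, 30 and 27.0 CPM (4.11 ± 0.59). *Igfbp5*, a binding protein made by differentiating muscle, went from 7.70, 4.88 and 4.41 CPM to 896, 523 and 677 CPM (6.96 ± 0.40, adjusted p = 4.2e-08). *Igf2bp1*, an RNA-binding protein, was the only member called lower (-0.77 ± 0.19). Of 41 imprinted genes 14 were higher and 3 lower. *Mest* went from 5.88, 9.59 and 7.95 CPM to 425, 225 and 235 CPM (5.21 ± 0.44, adjusted p = 7.13e-07), and the non-coding *Meg3* from 59.8, 35.3 and 20.0 CPM to 162, 207 and 308 CPM (2.65 ± 0.67, adjusted p = 0.00708). *Peg12* was called lower (-2.19 ± 0.30). Prol and D2 libraries did not overlap for any of these genes.

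In the lists for the cell surface and matrix, higher calls outnumbered lower ones. Of the semaphorins, plexins, ephrins, slits and their receptors 15 of 59 were called higher and 2 lower (median 0.83), of the cadherins and protocadherins 12 of 68 and 1, of matrix glycoproteins and proteoglycans 14 of 50 and 2 (median 1.16), of matrix proteases and their inhibitors 18 of 76 and 2 (median 1.02), and of collagen chains 9 of 39 and 1 (median 1.66). *Sema3d* went from 4.94, 2.98 and 1.57 CPM to 147, 71.0 and 78.4 CPM (5.04 ± 0.52) and *Sema6a* from 1.35, 1.74 and 1.2 CPM to 43.0, 31.8 and 30 CPM (4.61 ± 0.47). *Cdh15*, M-cadherin of muscle cells, went from 1.06, 1.76 and 2.95 CPM to 189, 99.2 and 91.5 CPM (6.08 ± 0.61). *Col5a3* went from 11.4, 16 and 20.4 CPM to 295, 192 and 180.5 CPM (3.81 ± 0.30, adjusted p = 3.87e-07). *Mfap4* of elastic fibres lay at or under 3 counts in all Prol libraries and was at 21.0, 17.8 and 11 CPM at D2, at least 142-fold higher. These genes showed no overlap between the groups. *Col1a1* was at 2163, 440 and 402.5 CPM in Prol and at 12260, 1797 and 2351 CPM at D2, so that Prol replicate 1 exceeded D2 replicate 2, and was not called (2.36 ± 1.04, adjusted p = 0.098). It was called without Prol replicate 1, at 3.15, and stood at 1.5 without D2 replicate 1. Among the integrins the laminin receptor subunit *Itga7* went from 3.01, 5.47 and 6.43 CPM to 126, 125 and 123 CPM (4.72 ± 0.36), and its relative *Itga3* from 253, 316 and 329.6 CPM to 77.0, 61.1 and 63.1 CPM (-2.16 ± 0.34). Of the basement membrane genes 6 of 25 were called higher, or 3 without Prol replicate 2 and 3 without D2 replicate 1. Of the secreted metalloproteases, *Adamts17* lay at or under 3 counts in all Prol libraries and was at least 164-fold higher at D2.

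**Figure D5:**
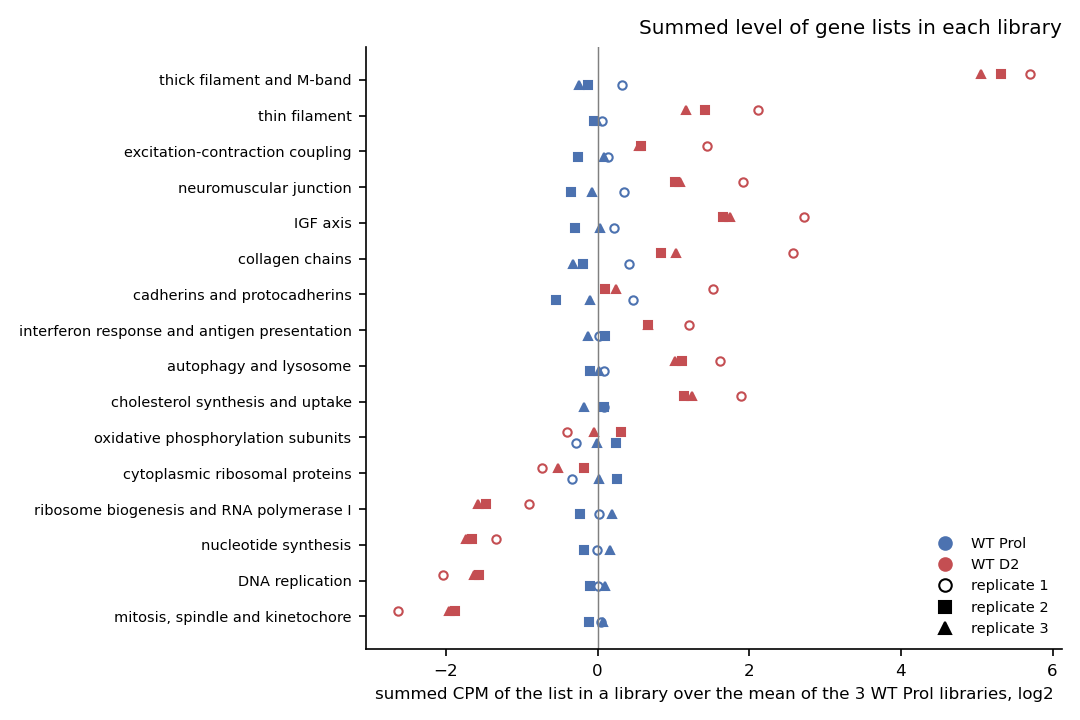
Summed CPM of 16 lists in each of the 3 WT Prol (blue) and 3 WT D2 (red) libraries, divided by the mean of the Prol libraries, on a log2 axis. The thick filament and M-band list stands farthest to the right at D2 and mitosis farthest to the left. Oxidative phosphorylation stays near zero, ribosomal proteins lie somewhat below zero at D2, and D2 replicate 1 (open red circles) stands apart for collagen chains.

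Signalling genes moved in both directions. Of the TGF-beta, activin and BMP genes 11 of 47 were called higher and 5 lower, or 10 and 8 without D2 replicate 1. The inhibitory *Smad6* and *Smad7* went from 59.1, 37.9 and 33.8 CPM to 16, 8.03 and 7.83 CPM (-2.08 ± 0.45) and from 88.0, 76.3 and 87.8 CPM to 24.1, 20.2 and 21.1 CPM (-1.95 ± 0.25, adjusted p = 2.92e-05). *Tgfbr2*, a TGF-beta receptor, went from 59.9, 60.5 and 59.0 CPM to 326, 235 and 242 CPM (2.15 ± 0.27, adjusted p = 2.31e-05). Of the growth factor receptor and MAPK feedback list 10 of 53 were higher and 5 lower, or 6 and 5 without Prol replicate 2 or 3 and 7 and 8 without D2 replicate 1. In it *Spry1*, an inhibitor of receptor signalling, went from 4.73, 5.55 and 6.23 CPM to 47.0, 52.6 and 57.3 CPM (3.25 ± 0.19, adjusted p = 4.55e-08), *Erbb3*, the neuregulin receptor, was at 7.69, and *Met*, the receptor of hepatocyte growth factor, was called lower at -1.80 ± 0.40. Of 36 immediate early and AP-1 genes 3 were higher and 3 lower (median -0.047), or 1 and 7 without D2 replicate 1. In that list *Fosl1* of AP-1 was called lower at -3.22, or -3.96 without D2 replicate 1. Of 37 interferon response and antigen presentation genes 10 were higher and 0 lower, or 6, 3, 5 and 6 without Prol replicates 1 and 3 and D2 replicates 1 and 3. *Ifi27* of that list went from 4.97, 5.36 and 2.89 CPM to 40.9, 48.6 and 43.4 CPM (3.38 ± 0.36). Of 33 oxidative stress genes 11 were lower and 2 higher, or 7 and 1 without Prol replicate 3, with *Prdx6* at -1.62 ± 0.22.

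Genes of RNA processing and the cytoskeleton also moved in both directions. Of 38 splicing and RNA-binding regulators 4 were called higher and 13 lower. *Rbm24* and *Rbfox1*, splicing factors of muscle, went from 0.254, 0.178 and 0.118 CPM to 56.8, 36.4 and 34.7 CPM (7.89 ± 0.69) and from 1.32, 2.23 and 1.74 CPM to 12.7, 18.4 and 15.7 CPM (3.16 ± 0.45). *Ptbp2*, a repressor of exon inclusion, went from 129.7, 132 and 169 CPM to 49.5, 51.5 and 56.1 CPM (-1.45 ± 0.19, adjusted p = 3.66e-05), and *Hnrnpa1* was at -1.40 ± 0.30. Of 39 kinesins 15 were lower and 3 higher, and the 5 largest falls were those of the mitotic motors *Kif23*, *Kif18b*, *Kif11*, *Kif2c* and *Kif20b*. *Akap6*, which anchors microtubule nucleation at the nuclear surface of muscle, went from 1.66, 1.88 and 1.5 CPM to 32.2, 12.8 and 17.8 CPM (3.54 ± 0.44). *Nes*, nestin, was called higher at 1.81 ± 0.45 and *Ezr*, ezrin, lower at -3.33 ± 0.42. Of 53 non-muscle actin genes 9 were higher and 9 lower, or 7 and 5 without Prol replicate 3, 10 and 17 without D2 replicate 1, and 7 and 5 without D2 replicate 3. Of 224 solute carriers 26 were higher and 21 lower, or 27 and 12 without D2 replicate 2. In this family the lactate transporter *Slc16a3* was at -2.38. Of 370 *Zfp* zinc finger genes 19 were higher (5.14%) and 21 lower (5.68%), or 9 and 17 without Prol replicate 1, 9 and 13 without Prol replicate 3, 12 and 18 without D2 replicate 2, and 11 and 16 without D2 replicate 3.

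Of the lists not described so far, the secreted muscle factors had the highest share of higher calls, with 13 of 28 called higher and 2 lower (median log2 fold change 1.36). Wnt pathway genes had 6 of 48 higher and 4 lower, circadian clock genes 4 of 19 and 0, and genes of FoxO, mTOR and insulin signalling 6 of 27 and 1. Tubulins had 3 of 14 higher and 6 lower, and genes of the centrosome and primary cilium 4 of 46 and 11. The remaining lists are in the plot of shares by list.

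Genes were also grouped by the letters of their symbol before its first digit, which gave 250 families with at least 8 tested genes. Of these, 23 held no called gene, 11 had more than 50% of their genes called lower, and 0 had more than 50% called higher. The highest shares called higher were those of *Adamts* with 8 of 16 genes, *Abca* lipid transporters with 5 of 10, *Myh* with 5 of 11, *Igf* with 4 of 9, *Cdkn* with 4 of 10, *Capn*, *Myl* and *Zfyve* with 3 of 8 each, *Sema* with 7 of 19 and *Mmp* with 5 of 14, a share that *Stx* syntaxins also had. Several of these counts rested on single libraries. The *Zfyve* count was 1 without Prol replicate 1, Prol replicate 3 or D2 replicate 3. The *Cdkn* count was 2 without Prol replicate 3 and in a fit of the 6 libraries alone, and without D2 replicate 2 there were 3 genes called higher and 3 called lower. The *Igf* count was 2 without D2 replicate 1, and the *Stx* count was 3 without Prol replicate 1, Prol replicate 3 or D2 replicate 3 and in a fit of the 6 libraries alone. In the *Abca* family, *Abca1*, which exports cholesterol from cells and is named after its values were seen, was at 0.335, 0.139 and 0.186 CPM in Prol and at 25.3, 5.52 and 11.6 CPM at D2 (5.84 ± 1.03, adjusted p = 0.000448). The highest shares called lower were those of *Cct* chaperonins with 7 of 8 genes, *Mcm* with 8 of 10, *Haus* augmin subunits with 6 of 8, *Exosc* exosome subunits with 6 of 9, *Nop* and *Rrp* with 5 of 8 each, *Lsm* with 8 of 13, *Nup* with 12 of 20, and *Srsf* splicing factors and *Utp* with 6 of 10 each. Without D2 replicate 3 the *Cct* count was 4, and the *Utp* count was 3 without Prol replicate 1 and 1 without Prol replicate 3, D2 replicate 2 or D2 replicate 3.

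At confluence the fitted changes of these genes were nearer zero. The median log2 fold change of the 1618 genes called higher was 1.41 for D2/Prol and 0.13 for D0/Prol, and that of the 1897 genes called lower was -1.14 and -0.19. D2/D0 medians were 1.32 and -0.96. These comparisons share the Prol or the D2 libraries, and the genes were chosen by D2/Prol, so the values are only set side by side. At D0/Prol the fitted values were 1.24 for *Myog*, 1.12 for *Actc1*, -0.26 for *Mki67* and 0.28 for *Insig1*.

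KO cells, which share no library with WT cells, had 3806 genes called in D2/Prol (21.5%). Of the 3515 genes called in WT, 3161 were also called in KO in the same direction, which is 89.9% of the WT calls and 83.1% of the KO calls, and 0 were called in the opposite direction. Of the WT calls 3514 had the same sign in KO. The fitted change was larger in WT for 42.4% of the WT calls. A test of the difference between the changes in KO and WT, as an interaction term in limma, found 0 genes at an adjusted p below 0.05 with a smallest adjusted p of 1, and 167 genes at an unadjusted p below 0.05. With voom weights these counts were 0 and 175. The standard error of the difference was 1.01 for *Actc1* and 1.53 for *Lmod3*, so the absence of calls does not show equal changes. The median log2 difference, KO minus WT, was -0.99 for thick filament, -0.78 for thin filament and -0.49 for titin and Z-disc genes. It was 0.12 for cholesterol synthesis and uptake and -0.013 over all genes tested, and these medians carry no test. For the leading genes the fitted changes stood at 8.53 in KO and 10.20 in WT for *Actc1*, at 7.88 and 9.09 for *Myog*, at 6.46 and 6.96 for *Igfbp5*, at 2.71 and 2.49 for *Insig1*, and at -2.98 and -2.75 for *Mki67*. *Tmpo*, the gene that encodes LAP2alpha and its sister proteins, was called lower in WT (-1.14 ± 0.21, adjusted p = 0.000647) and was at -1.07 in KO.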

How the data were processed

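RNA was polyA-selected, made into directional libraries and sequenced single-end in 18 libraries. The authors trimmed reads with cutadapt, aligned them to the GRCm38 transcriptome with NextGenMap, estimated expected counts per gene with RSEM, scaled them with TMM in edgeR and deposited 1 file of CPM values per library. Per the file values, each deposited CPM is the expected count plus 0.5 over the TMM-scaled library total, so a gene without reads has a small value above 0. Estimated counts are shared between near-identical genes.

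Here the values were taken to log2 and fitted with limma 3.58.1 (R 4.3.3) with a variance trend, with 1 factor of 6 groups over all 18 libraries and 12 residual degrees of freedom, for genes that exceeded 5 expected counts throughout the 3 libraries of some group. The study's own model also blocked on the lane each library was sequenced on, which the labels do not give, so lane is not in this fit. P-values are two-sided and adjusted (Benjamini-Hochberg) across the 17672 genes of the fit. Fold changes include the added 0.5 counts, which understates changes of low genes. A gene at or under 3 counts in all libraries of a group is given as a bound against 3 counts per library, which covers counting error only. The fit was tested on simulated data. Gene types came from GENCODE and promoters from RefSeq. Alternatives were voom weights, other scalings, no filter, the 6 libraries alone, a replicate block, 1 CPM added before the log2, other call rules, and each library left out.

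The genes named are the 10 called genes with the largest rise and the 10 with the largest fall in log2, not overlapping between groups and with a mean of at least 10 CPM in the higher group, the 5 with the largest rise and the 5 with the largest fall in CPM, up to 5 called higher and 5 called lower in each list, members fixed as defining, uncalled members needed to account for a list, 10 symbol families in each direction, *Trp53* and *Tmpo*. Exceptions are stated, and some genes that this rule names are not reported here. The comparison and the lists were chosen with earlier results of these data known.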

Additional observations from a re-analysis of the deposited data

How the results depend on the processing

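The 3515 genes called in WT D2/Prol stood between 2627, without WT Prol replicate 3, and 3630, without WT D2 replicate 1, when single libraries were left out, and between 3384 and 3516 under voom weights, other scalings, no filter on low counts, the 6 libraries alone or 1 CPM added before the log2. Without the minimum of 10 CPM 5179 genes passed, with unadjusted p-values 4167, and with an absolute log2 fold change over 1.5 the count was 1326, by construction of a stricter rule. The labels do not say what a replicate number marks. The main fit did not treat libraries as paired. Same-numbered libraries of Prol and D2 had correlations of their deviations of 0.404, 0.269 and 0.0393, and differently numbered ones ran from -0.348 to 0.27. Replicate 1 thus deviated in a similar way in both groups, and the main fit leaves this in its spread. Its source was not tested. A fit that took the number as a replicate block called 4709 genes, among them all 3515. The test of a difference between KO and WT found 0 genes under voom weights, without the filter, with the replicate block and with each of the 12 libraries left out, with 164 to 399 at an unadjusted p below 0.05. Of 164 called genes named in the text, 4 lost their call in an alternative, each only on leaving out a library. For this count the minimum of 10 CPM was taken over all 6 libraries, also when a library was left out. *Myh6*, *Hdac9* and *Pdk2* reached 10 CPM in WT D2 replicate 1 alone, so they too could not be called without it. Of the values of all 180 named genes, 1 changed sign, that of the uncalled *Vcam1*, at -0.0083 without WT D2 replicate 1, the lowest value, 0.563 without WT D2 replicate 2, the highest, and 0.37 with all libraries, and the cause was not tested. Genes below about 0.1 CPM rest on 3 or fewer counts, so their folds are limited by depth.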

Other observations

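Of the 3515 called genes, 1062 were in one of the 72 lists, so most calls lay outside them. The genes that follow were outside the lists and are named after their values were seen. *Dpt*, the matrix protein dermatopontin, was at 0.0402, 0.534 and 0.560 CPM in Prol and at 53.4, 125 and 91.5 CPM at D2, a log2 fold change of 8.53 ± 0.81 (limma, adjusted p = 1.61e-06), with replicate 1 the lowest in both groups. The log2 fold change of *Dpt* was 7.28, 9.14 and 9.18 without Prol replicates 1, 2 and 3. *Ablim3*, an actin-binding protein, was called higher at 8.70 ± 0.96, and *Shisal1*, at or under 3 counts in all Prol libraries, was at least 247-fold higher. Without Prol replicate 1 *Ablim3* was at 9.48. *Pcolce2*, an enhancer of procollagen processing, went from 25.6, 17.4 and 33.5 CPM to 2.04, 1.66 and 1.76 CPM (-3.76 ± 0.32, adjusted p = 7.29e-07), and *Alpl*, tissue-nonspecific alkaline phosphatase, was called lower at -3.41 ± 0.51. The groups did not overlap for any of these 5 genes.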
